A study of Mus musculus with 12 samples.

Results

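The 8 genes described here belong to the synthesis of cholesterol and its control, namely Hmgcs1, Idi1, Fdps, Fdft1, Sqle, Lss, Dhcr7 and Insig1. They were chosen by symbol from a table of read counts for 14909 genes in the frontal cortex of mice, and all 8 had enough counts to be tested among 14274 genes. Levels in 5 Upf3b-null mice (KO 1 to 4 and KO 6) were set against those in 7 wild-type mice (WT 1 to 7), with 1 RNA sequencing library per mouse. All mice were of the C57BL/6 strain and none was labelled with a treatment. The sources used here do not give the form of the Upf3b mutation, the age or sex of the mice, or whether the controls were littermates. Upf3b is an X-linked gene whose protein joins the exon junction complex to nonsense-mediated mRNA decay, the pathway that removes transcripts with premature stop codons.

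Cholesterol is built from acetyl-CoA along the mevalonate pathway. Hmgcs1 makes HMG-CoA, Idi1 and Fdps build farnesyl diphosphate from isoprene units, and Fdft1 (squalene synthase) commits it to sterols. Sqle oxidises squalene, Lss (lanosterol synthase) closes the rings, and Dhcr7 acts near the end of the pathway. Insig1 holds the sensor SCAP and its partner SREBP in the endoplasmic reticulum when sterols are plentiful. When sterols are scarce, SREBP2 reaches the nucleus and switches on most genes of the pathway, Insig1 included. The brain makes its own cholesterol, because lipoproteins of the blood do not cross the blood-brain barrier, and oligodendrocytes and astrocytes are major producers.

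In KO cortex 5 of the 8 genes were lower than in WT cortex and 0 were higher. Insig1, Idi1 and Hmgcs1 had the largest differences, with levels near 80.4%, 80.2% and 82.6% of WT, and Fdps (87.3%) and Fdft1 (88.1%) were also lower. Sqle, Lss and Dhcr7 did not pass the test, which was edgeR's quasi-likelihood test at a Benjamini-Hochberg adjusted p under 0.05 over all tested genes. Over all genes, 14.4% were called lower and 15.3% higher in KO. The DESeq2 Wald test, limma-voom and cyclic loess scaling also called 0 higher and 5 lower. Of all genes they called 15.3%, 14.8% and 15.1% lower and 11.9%, 16.0% and 12.7% higher. At an unadjusted p under 0.05, 1 of the 8 (Lss) was higher in edgeR. Counts at an unadjusted p, here and below, are given without the share of all genes. The median log2 fold change was -0.19 over the 8 genes and 0.03 over all genes tested. The 8 genes were counted densely, and among the 5624 genes whose counts per exonic base lay between the lowest and highest of the 8, 24.3% were called lower and 7.84% higher. The median log2 fold change of those 5624 genes was -0.06.

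Upf3b itself had 11 to 24 counts in the KO libraries, against 157 to 219 in the WT libraries. Its level was 2.76 ± 0.877 CPM (counts per 1000000 counts of the library, scaled by TMM factors) in KO and 38.3 ± 2.48 CPM in WT (SD, n = 5 and 7), a log2 fold change of -3.78 ± 0.13 (SE). Library totals ran from 4990643 to 6617759 counts in KO and from 4684039 to 5425774 in WT. KO 1 was the only KO library inside the WT range of totals, and the other 4 KO libraries were deeper than every WT library. The closest libraries, WT 6 and WT 7, differed about as much as counting noise alone (chi-square per degree of freedom 1.02), close to KO 3 and KO 4 at 1.20, and were kept as separate mice because the labels number them as such. The biological coefficient of variation was 8.11%.

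**Figure D1:**
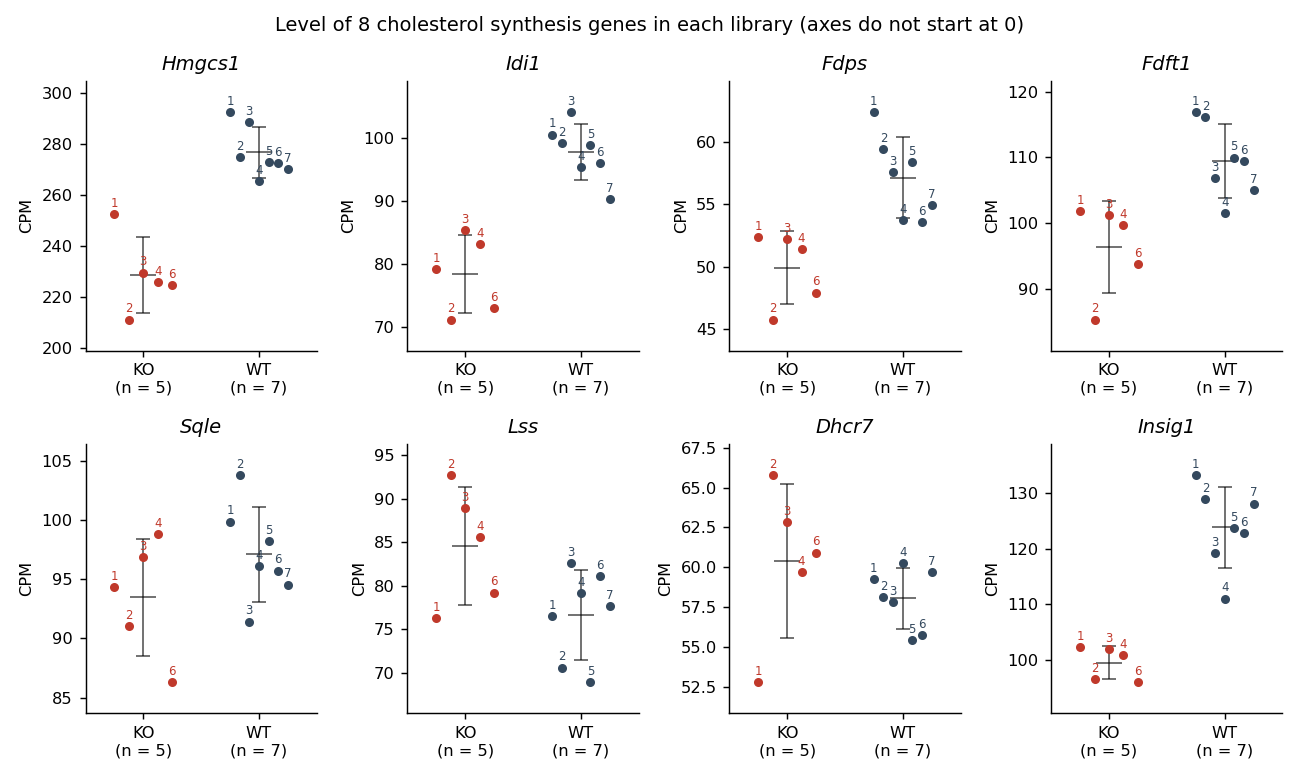
CPM of each of the 8 genes in 5 KO libraries (red, left) and 7 WT libraries (dark blue, right). Points are libraries with the mouse number above, and bars are the mean and SD. The KO and WT points do not overlap for Hmgcs1, Idi1, Fdps and Insig1, and the vertical axes do not start at 0.

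Coordinates are those of GENCODE M21 on GRCm38, the same build as the mm10 named in the submitters' processing notes, and all 8 are protein-coding genes. Hmgcs1 lies on the plus strand at chr13:119690379-119708260 and Idi1 on the plus strand of the same chromosome at chr13:8885501-8892451. Fdps lies at chr3:89093588-89101959 and Fdft1 at chr14:63145150-63179578, both on the minus strand. The plus-strand genes Sqle, Lss, Dhcr7 and Insig1 lie at chr15:59315077-59331192, chr10:76531588-76557138, chr7:143823145-143848410 and chr5:28071363-28078662. Exons of Fdft1, which cover 4227 bases, share 774 bases with Ctsb on the opposite strand. The strand setting of the counting is not stated, so reads within the shared bases cannot be told apart. Ctsb, a lysosomal protease gene, averaged 275 ± 17.7 CPM in KO and 316 ± 13.7 CPM in WT, a log2 fold change of -0.20 ± 0.05. In a fit with offsets for count density, described further on, Ctsb was at -0.04 ± 0.03 (adjusted p = 0.298, edgeR) and Fdft1 at -0.16 ± 0.05 (0.0287). Fdps shares 1124 exonic bases with Gm43738 on its own strand, and Hmgcs1, Idi1 and Lss share 557, 323 and 381 exonic bases with Gm48342, Gm48574 and 4930483K19Rik on the opposite strand. None of these 4 genes is a row of the table. The overlaps are over all GENCODE exons of a gene, which for Fdps cover 4208 bases, against a RefSeq exonic length of 1453. How many of the shared bases were counted is not known. The counts of Fdps, Fdft1, Hmgcs1, Idi1 and Lss are therefore uncertain to an unknown extent.

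Promoter windows from RefSeq (GRCm38.p6), running from 250 bases before to 50 bases after a gene's start, were matched by symbol for 5 of the 8 genes. Those of 3 genes that fell in KO (Hmgcs1, Idi1 and Insig1) and of 1 that did not pass the test (Lss) are shown, since SREBP2 is known to act at such promoters together with NF-Y and Sp1. Each is on the plus strand, 5′ to 3′. The Hmgcs1 window is chr13:119690101-119690400, that of Idi1 is chr13:8885356-8885655, that of Insig1 is chr5:28071162-28071461 and that of Lss is chr10:76531355-76531654. Capitals mark matches to CCAAT (the letters bound by NF-Y), to GGGCGG (a GC box, the letters bound by Sp1) and to TCACNCCAC (the core of the sterol regulatory element), on either strand, so that ATTGG and CCGCCC are the reverse-strand forms of CCAAT and GGGCGG.
Hmgcs1: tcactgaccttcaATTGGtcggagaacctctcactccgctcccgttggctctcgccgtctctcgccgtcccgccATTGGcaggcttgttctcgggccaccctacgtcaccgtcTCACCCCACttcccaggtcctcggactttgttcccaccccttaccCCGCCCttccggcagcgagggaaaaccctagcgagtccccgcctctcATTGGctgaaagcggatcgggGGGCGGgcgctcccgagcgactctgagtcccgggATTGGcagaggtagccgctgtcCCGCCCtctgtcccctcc
Idi1: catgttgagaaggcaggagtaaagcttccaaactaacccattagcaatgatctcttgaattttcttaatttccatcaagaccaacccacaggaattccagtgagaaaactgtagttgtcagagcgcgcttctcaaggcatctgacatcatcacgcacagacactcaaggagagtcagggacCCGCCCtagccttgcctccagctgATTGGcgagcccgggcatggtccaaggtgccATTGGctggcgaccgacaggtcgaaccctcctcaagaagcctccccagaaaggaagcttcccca
Insig1: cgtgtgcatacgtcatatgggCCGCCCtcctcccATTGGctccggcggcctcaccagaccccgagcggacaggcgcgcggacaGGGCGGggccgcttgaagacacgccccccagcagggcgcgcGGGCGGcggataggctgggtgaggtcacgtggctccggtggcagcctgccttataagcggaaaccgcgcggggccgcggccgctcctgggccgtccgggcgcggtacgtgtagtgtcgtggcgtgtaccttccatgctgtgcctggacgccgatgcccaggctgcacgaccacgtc
Lss: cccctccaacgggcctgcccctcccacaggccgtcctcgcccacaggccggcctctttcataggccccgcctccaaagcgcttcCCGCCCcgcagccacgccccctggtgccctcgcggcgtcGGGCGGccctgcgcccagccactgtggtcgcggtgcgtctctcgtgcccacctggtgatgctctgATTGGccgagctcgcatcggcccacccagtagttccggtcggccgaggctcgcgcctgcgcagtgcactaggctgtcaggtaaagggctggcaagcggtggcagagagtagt
The sterol-element core was found in the window of Hmgcs1 and in none of the other member windows, against 1.24% of the 32851 windows of all genes. The 5 genes had 7 windows in all. CCAAT was present in 5 of these 7, at least 1 for each gene, and in 37.4% of all windows. Hmgcs1 held 4 copies, while 3 or more were present in 3.37% of all windows. GGGCGG was present in 6 of the 7 windows, at least 1 for each of the 5 genes, and in 35.7% of all windows. Lss, whose level did not pass the test, held CCAAT and GGGCGG as did the 3 genes that fell, so these short matches did not separate them. A match of letters is a description and not a measured binding site.

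Among the early enzymes, Hmgcs1, which makes HMG-CoA, was the most abundant of the 8. Its level was 252, 211, 230, 226 and 225 CPM in KO 1, 2, 3, 4 and 6, against a lowest value of 265, a median of 273 and a highest of 292 CPM in WT. All 5 KO libraries were below all 7 WT libraries, with KO 1 the highest of the KO libraries. Hmgcs1 averaged 229 ± 15 CPM in KO and 277 ± 9.98 CPM in WT, a log2 fold change of -0.28 ± 0.04 (adjusted p = 7.56e-04, edgeR).

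Idi1, the isomerase that readies isoprene units for joining, measured 79.2, 71.1, 85.3, 83.1 and 72.9 CPM in KO 1, 2, 3, 4 and 6. In WT it had a lowest value of 90.3, a median of 98.8 and a highest of 104 CPM. The groups did not overlap, and KO 2 and KO 6 were the lowest libraries. Idi1 averaged 78.3 ± 6.20 CPM in KO and 97.7 ± 4.38 CPM in WT, a log2 fold change of -0.32 ± 0.05 (adjusted p = 7.92e-04, edgeR). Fdps, which joins isoprene units into farnesyl diphosphate, measured 52.4, 45.7, 52.2, 51.4 and 47.9 CPM in the same KO libraries and 53.6, 57.6 and 62.4 CPM as the WT lowest, median and highest. Its groups also did not overlap, but the gap between the highest KO and the lowest WT library was small. The log2 fold change of Fdps was -0.20 ± 0.05 (adjusted p = 0.0129, edgeR), with means of 49.9 ± 2.95 CPM in KO and 57.2 ± 3.27 CPM in WT.

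Fdft1, the first enzyme given over to sterols, measured 101.9, 85.4, 101, 99.7 and 93.9 CPM in KO 1, 2, 3, 4 and 6, against 101.5 (lowest), 109 (median) and 117 CPM (highest) in WT. KO 1 lay just above the lowest WT library, WT 4, and the other 4 KO libraries lay below all WT libraries. Fdft1 averaged 96.4 ± 6.93 CPM in KO and 109 ± 5.61 CPM in WT, a log2 fold change of -0.18 ± 0.05 (adjusted p = 0.0147, edgeR). KO 2 had the lowest level of all 12 libraries for Hmgcs1, Idi1, Fdps and Fdft1, and the highest for Lss and Dhcr7.

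Insig1, the membrane protein that retains SCAP, had the smallest adjusted p of the 8. Its level was 102, 96.6, 102, 101 and 96.0 CPM in KO 1, 2, 3, 4 and 6, against a lowest value of 111, a median of 124 and a highest of 133 CPM in WT. The 5 KO libraries lay close together and all below WT. Insig1 averaged 99.5 ± 3.00 CPM in KO and 124 ± 7.30 CPM in WT, a log2 fold change of -0.32 ± 0.04 (adjusted p = 3.66e-04, edgeR). In all, the KO and WT ranges of 4 of the 8 genes did not overlap and KO was lower, against 4.80% of all tested genes. None of the 8 had KO wholly above WT, against 5.84% of all tested genes. Neither share was taken among genes of like count density, where lower calls were more frequent (24.3% against 14.4% of all genes).

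The other 3 of the 8 genes, Sqle, Lss and Dhcr7, did not pass the test. Sqle, the squalene epoxidase that is a slow step of the pathway, averaged 93.4 ± 4.95 CPM in KO and 97.1 ± 3.99 CPM in WT. Its log2 fold change was -0.06 ± 0.04, with a 95% interval from -0.15 to 0.04 (adjusted p = 0.356, edgeR). KO 2 and KO 6 lay below all WT libraries and the other 3 KO libraries within the WT range.

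Lss measured 76.3, 92.7, 88.9, 85.5 and 79.2 CPM in KO 1, 2, 3, 4 and 6, against 68.9 (lowest), 77.6 (median) and 82.6 CPM (highest) in WT. KO 2, KO 3 and KO 4 lay above all WT libraries, while KO 1 and KO 6 were within their range. Lss averaged 84.5 ± 6.77 CPM in KO and 76.6 ± 5.16 CPM in WT, and its log2 fold change was 0.14 ± 0.06, with a 95% interval from 0.02 to 0.27 (adjusted p = 0.0733, edgeR). Without KO 1 it was 0.18 and passed the test (adjusted p = 0.0312, edgeR), and over the 12 fits that each left out 1 library its adjusted p ran from 0.0312 to 0.184.

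Dhcr7, which reduces 7-dehydrocholesterol, measured 52.8, 65.8, 62.9, 59.7 and 60.9 CPM in KO 1, 2, 3, 4 and 6, against 55.4 (lowest), 58.1 (median) and 60.3 CPM (highest) in WT. KO 1 lay below all WT libraries and KO 2, KO 3 and KO 6 above them. Dhcr7 averaged 60.4 ± 4.85 CPM in KO and 58.0 ± 1.90 CPM in WT, a log2 fold change of 0.06 ± 0.05 with a 95% interval from -0.05 to 0.17 (adjusted p = 0.399, edgeR).

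Per length of transcript, Hmgcs1 had the highest level of the 8 in both groups, at 65.7 ± 4.30 CPM per kb in KO and 79.4 ± 2.87 CPM per kb in WT, and no other member's libraries reached its range in either group. Insig1 came next with 36.9 ± 1.11 CPM per kb in KO and 45.9 ± 2.71 in WT, followed by Fdps with 34.4 ± 2.03 in KO and 39.3 ± 2.25 in WT, and Sqle with 33.9 ± 1.79 in KO and 35.2 ± 1.45 in WT. Insig1 and Fdps overlapped across libraries of both groups, and so did Fdps and Sqle. Fdft1 and Idi1 overlapped and changed places, with Fdft1 at 26.1 ± 1.87 in KO and 29.6 ± 1.52 CPM per kb in WT and Idi1 at 25.9 ± 2.05 in KO and 32.3 ± 1.45 CPM per kb in WT. In KO, Sqle stood clear of both, while in WT it overlapped with Idi1. Dhcr7 (21.5 ± 1.72 in KO and 20.6 ± 0.673 CPM per kb in WT) and Lss (18.1 ± 1.45 in KO and 16.4 ± 1.10 CPM per kb in WT) were the lowest, overlapping in KO and not in WT.

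The fold changes of all genes moved with how densely they were counted. The median log2 fold change of the decile of genes with the fewest counts per exonic base was 0.25, and that of the decile with the most was -0.18. Lss lay in the sixth of these deciles, Dhcr7 in the seventh, Idi1 and Fdft1 in the eighth, Sqle, Fdps and Insig1 in the ninth and Hmgcs1 in the tenth. Hmgcs1 counts differed 1.26-fold between the highest and the lowest library, against 1.41-fold for the library totals. The deepest libraries were KO libraries, where Hmgcs1 CPM was lower, so these ranges do not show how densely counted genes behave. Because fold changes moved with count density, the fit was repeated with offsets that level each library for count density. With them, 7.88% of all genes were called lower and 8.54% higher. Among genes with count densities in the range of the 8, these shares were 9.85% and 9.90%.

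**Figure D2:**
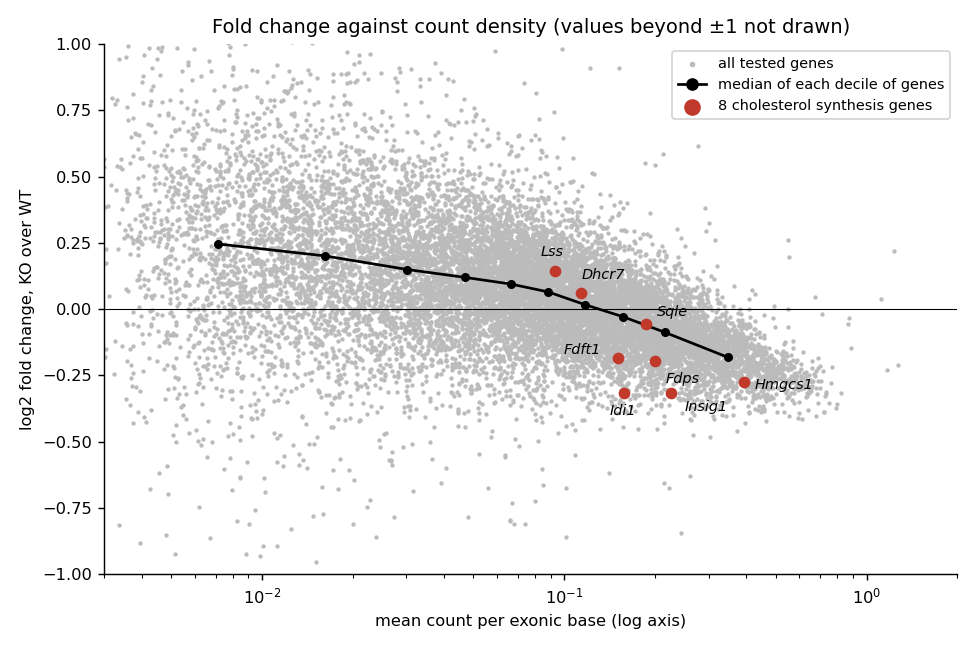
Log2 fold change of KO over WT (vertical) against mean count per exonic base on a log axis (horizontal), for the tested genes with an exonic length (grey) and the 8 genes (red). The black line joins the medians of the deciles of genes, which run from 0.25 to -0.18. Idi1, Insig1, Fdft1 and Fdps lie below the line, Lss and Dhcr7 above it and Hmgcs1 past its right end, and values beyond 1 on either side are not drawn.

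With the density offsets edgeR called 4 of the 8 genes lower and 0 higher, all 4 of them among the 5 named above. At an unadjusted p under 0.05 these were 5 and 0. Idi1 had the largest difference, a log2 fold change of -0.28 ± 0.05 (adjusted p = 0.00189, edgeR), followed by Insig1 with -0.22 ± 0.04 (0.00212) and Fdft1 with -0.16 ± 0.05 (0.0287). Hmgcs1 shrank to -0.08 ± 0.03 and passed the test narrowly (0.0487), and Fdps, at -0.12 ± 0.05, did not pass (0.0835). Sqle was at 0.01 ± 0.04 (0.929), Lss at 0.10 ± 0.06 (0.257) and Dhcr7 at 0.04 ± 0.05 (0.610). The median of the 8 was -0.10 and that of all genes was 0.00.

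Depth and genotype cannot be told apart in the 4 KO libraries that were deeper than every WT library, so KO 1 was also set beside WT alone. KO 1 is 1 library with no spread of its own, and the part of depth was not tested by it. Relative to the WT mean of log2 CPM, KO 1 differed by -0.27 for Insig1 and -0.30 for Idi1, close to the -0.32 and -0.33 averaged by the other 4 KO libraries. For Hmgcs1, KO 1 differed by -0.13, against -0.31 in the other 4 KO libraries. The values were -0.12 against -0.21 for Fdps and -0.10 against -0.20 for Fdft1. Lss and Dhcr7, which were higher in the other KO libraries by 0.18 and 0.10, differed by 0.00 and -0.14 in KO 1. With the log2 library total as a covariate, 0 of the 8 were called lower or higher by edgeR, against 0.0771% and 0.588% of all genes. At an unadjusted p under 0.05, 3 (Hmgcs1, Idi1 and Insig1) were lower. The shares just given are at adjusted p and are no background for that count. The SEs were 1.28 to 1.77 times as large. The log2 fold changes in that fit were -0.33 for Idi1, -0.25 for Insig1, -0.15 for Hmgcs1, -0.14 for Fdps and -0.12 for Fdft1. The adjusted p of each over its 24 alternatives reached 0.137 for Idi1, 0.179 for Insig1, 0.277 for Hmgcs1, 0.539 for Fdps and 0.587 for Fdft1, in each case with this covariate. Without any 1 library all 5 stayed under 0.05, the highest being 0.0372 for Fdps.

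**Figure D3:**
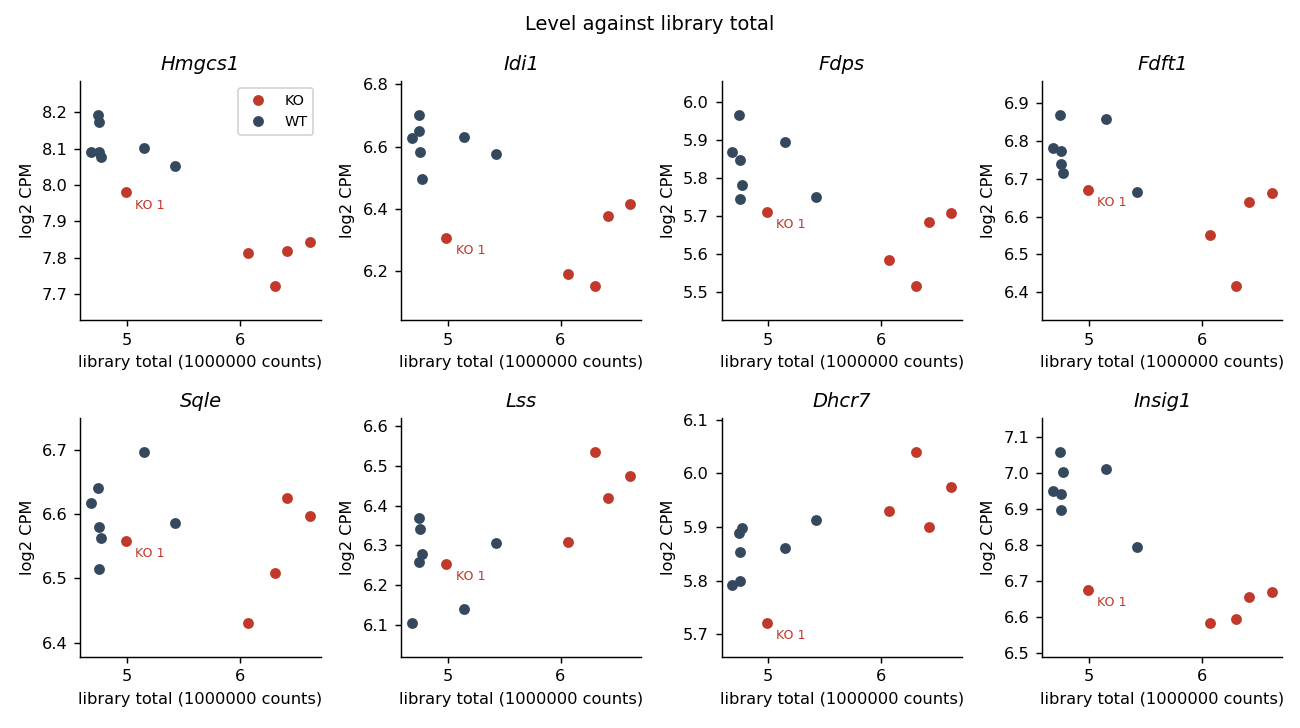
Log2 CPM of each gene (vertical) against library total in units of 1000000 counts (horizontal), with KO libraries in red and WT libraries in dark blue. KO 1 is the KO library with a total within the WT range. For Idi1 and Insig1 it lies with the other KO libraries, for Hmgcs1 between the other KO libraries and WT, and for Dhcr7 it is the lowest library.

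Ratios of successive enzymes among the 8 genes were then compared within each library, since scaling factors cancel in them. The p-values are from exact two-sided permutation tests over the 792 arrangements of 12 libraries, adjusted over the 6 ratios. Because the ratios were chosen after the values were seen, these p-values are descriptions and not independent tests. The log2 ratio of Fdps to Idi1 averaged -0.65 ± 0.05 in KO and -0.77 ± 0.07 in WT (SD, n = 5 and 7), a difference of 0.13 (adjusted exact p = 0.0227). That of Sqle to Fdft1 averaged -0.04 ± 0.09 in KO and -0.17 ± 0.05 in WT, a difference of 0.13 (adjusted exact p = 0.0227). Idi1 was thus lower relative to Fdps in KO, and Fdft1 lower relative to Sqle. Without KO 2, KO 6 or WT 5 the Fdps to Idi1 ratio did not pass (adjusted exact p = 0.0636, 0.0636 and 0.0519), and without KO 2 or WT 5 neither did the Sqle to Fdft1 ratio (0.0636 and 0.0519).

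The ratio of Fdft1 to Fdps differed by 0.01 between KO and WT (adjusted exact p = 0.644), that of Lss to Sqle by 0.20 (0.0783) and that of Dhcr7 to Lss by -0.09 (0.199). Without KO 1 or WT 3 the Lss to Sqle ratio passed, with differences of 0.24 (adjusted exact p = 0.0424) and 0.23 (0.0346). Idi1 relative to Hmgcs1 differed by -0.05 (adjusted exact p = 0.406). The ratio of Idi1 to Hmgcs1 changed most with the density offsets, where the difference was -0.20, the KO and WT libraries did not overlap and the adjusted exact p was 0.00379. With the same offsets the Fdps to Idi1 difference was 0.17 (adjusted exact p = 0.00379) and the Sqle to Fdft1 difference 0.16 (0.00758).

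Of 13 other genes of the sterol route edgeR called 4 lower in KO and 0 higher, with a median log2 fold change of -0.06. Msmo1, the methylsterol monooxygenase, averaged 90.2 ± 6.34 CPM in KO and 112 ± 4.12 CPM in WT, a log2 fold change of -0.32 ± 0.05 (adjusted p = 3.97e-04, edgeR), with no overlap between the groups. Hsd17b7, a ketosteroid reductase, had a log2 fold change of -0.19 ± 0.05 (adjusted p = 0.0129, edgeR), Erg28, listed as 0610007P14Rik, of -0.18 ± 0.06 (0.0240) and Sc5d, a sterol desaturase, of -0.20 ± 0.07 (0.0436). With the density offsets Msmo1 (-0.19), Hsd17b7 (-0.29) and Sc5d (-0.27) were called lower, with adjusted p of 0.00188, 0.00227 and 0.0272, while Erg28 (-0.10, 0.186) was not. Sc5d and Erg28 also missed 0.05 when 1 library was left out, with adjusted p up to 0.0953 and 0.0617.

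The other 9 genes of the route did not pass. The 3 enzymes just before Idi1 lay near 0, with log2 fold changes of 0.06 ± 0.07 for Mvk, 0.02 ± 0.06 for Pmvk and 0.01 ± 0.07 for Mvd. Cyp51, which demethylates lanosterol, was at -0.08 ± 0.04. Acat2, Tm7sf2, Lbr, Nsdhl and Ebp ranged from -0.11 for Lbr to 0.05 for Tm7sf2. Over all 21 genes of the route, 9 were called lower and 0 higher, 14 had a negative log2 fold change and the median was -0.08. Over all genes tested, 14.4% were called lower, 43.8% had a negative log2 fold change and the median was 0.03. Among the 5624 genes in the count density range of the 8, 24.3% were called lower and the median was -0.06, close to that of the route. With the density offsets 7 of the 21 were called lower, against 7.88% of all genes.

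**Figure D4:**
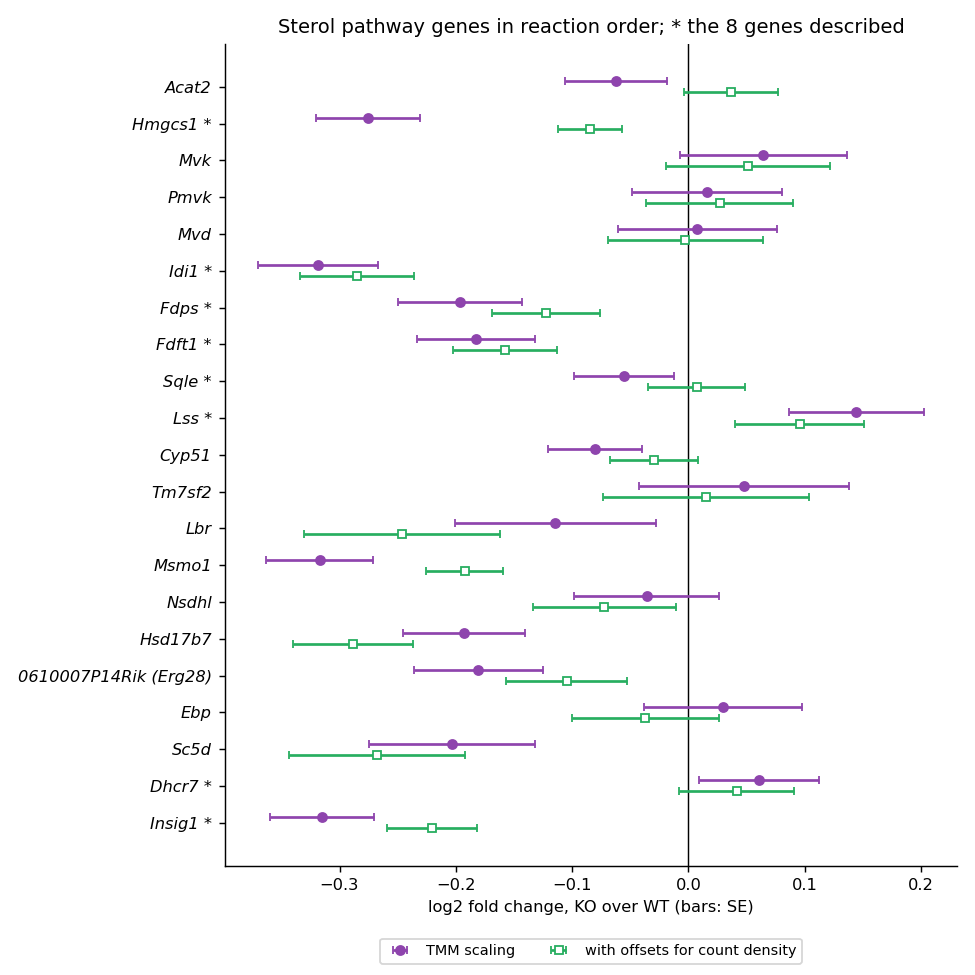
Log2 fold change of KO over WT with its SE (horizontal) for the 21 sterol genes in reaction order from the top, with Insig1 last. Filled circles are from TMM scaling and open squares from the fit with density offsets. Hmgcs1 moves from -0.28 to -0.08 between the fits, and Idi1 from -0.32 to -0.28.

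The genes that encode the SREBP proteins, their sensor and the other retention protein did not pass the test. Srebf2, which encodes SREBP2, averaged 258 ± 13.5 CPM in KO and 273 ± 9.28 CPM in WT, a log2 fold change of -0.08 ± 0.04 (adjusted p = 0.139, edgeR). Srebf1 was at 0.06 ± 0.06, Scap at 0.08 ± 0.04 and Insig2, a relative of Insig1, at -0.02 ± 0.06. Of these 4, Scap was called higher with the density offsets (0.14, adjusted p = 0.0113, edgeR). Of 14 genes of SREBP regulation, edgeR, DESeq2 and limma-voom called 0 and cyclic loess scaling called 1 higher, and 2 were higher in edgeR at an unadjusted p under 0.05.

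Of 13 genes of the branches that leave the mevalonate pathway, Nus1 (dolichol synthesis, -0.15 ± 0.04, adjusted p = 0.0159, edgeR) and Coq2 (coenzyme Q synthesis, -0.24 ± 0.07, 0.0256) were called lower and Icmt, which methylates prenylated proteins, higher (0.12 ± 0.04, 0.0265). Over all genes, 14.4% were called lower and 15.3% higher. With the offsets, Icmt alone of Nus1, Coq2 and Icmt was called (0.15, adjusted p = 0.0111, edgeR). Of 13 genes of sterol uptake and transport edgeR and DESeq2 called 0, limma-voom and cyclic loess scaling each called 1 higher, and 2 were higher in edgeR at an unadjusted p under 0.05. Lrp1, a receptor for ApoE, was at 0.20 ± 0.07 (adjusted p = 0.0564, edgeR), and was called higher with the offsets (0.28, 0.0195).

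Of 13 tested genes of sterol efflux and turnover 3 were called lower and 2 higher, against 14.4% and 15.3% of all genes. Apoe, which encodes the main apolipoprotein of the brain, averaged 161 ± 23.5 CPM in KO and 209 ± 8.43 CPM in WT, a log2 fold change of -0.38 ± 0.07 (adjusted p = 0.00148, edgeR), and of -0.11 with the offsets (0.0193). Apod, another apolipoprotein, was at -0.40 ± 0.07 (adjusted p = 7.65e-04, edgeR) and -0.32 with the offsets (0.00221). Cyp46a1, the neuronal enzyme that hydroxylates cholesterol for export, was at -0.18 ± 0.05 (0.0112) and at 0.01 with the offsets (0.833), and Abca7, a lipid transporter, at 0.34 ± 0.09 (0.00937) and 0.21 (0.102). For fatty acids, whose synthesis follows SREBP1 more than SREBP2, 3 of 15 genes were called lower and 2 higher. Among all genes the shares were again 14.4% and 15.3%. Acsl3 was at -0.24 ± 0.05, Scd2 at -0.27 ± 0.06, Elovl6 at 0.18 ± 0.05 and Acaca at 0.16 ± 0.05. Of these 4, Acsl3 alone passed with the offsets (-0.13, adjusted p = 0.0341, edgeR).

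In bulk tissue, fewer cells of a type and less RNA per cell cannot be told apart, so markers of the cell types were set beside the 8 genes. The summed level of the 8 was 760 to 819 CPM in KO libraries and 862 to 941 CPM in WT libraries. Mature oligodendrocyte and myelin markers summed to 1732 to 1951 CPM in KO and 1849 to 2128 CPM in WT, with 4 of 14 called lower and 1 higher. Over all genes, 14.4% were called lower and 15.3% higher, or 7.88% and 8.54% with the density offsets. Cnp, a myelin enzyme gene, had a log2 fold change of -0.19 ± 0.04 (adjusted p = 0.00433, edgeR), while Myrf, a regulator of myelination, was higher by 0.31 ± 0.08 (0.00838). With the density offsets 0 of the 14 myelin markers were called lower and 1 was called higher, and their median was 0.03. At an unadjusted p under 0.05 these counts were 2 lower and 3 higher.

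Astrocyte markers summed to 2642 to 3105 CPM in KO and 2911 to 3418 CPM in WT, with 5 of 12 called lower, of which the offsets left Aldoc (-0.12, adjusted p = 0.0145, edgeR) and Sox9 (-0.50, 5.18e-04). Neuron markers summed to 3128 to 3851 CPM in KO and 3712 to 4043 CPM in WT, with 10 of 11 called lower and none with the offsets. Microglia markers summed to 651 to 689 CPM in KO and 729 to 903 CPM in WT, with no overlap, and 8 of 12 were called lower, or 5 with the offsets. With the library total as covariate 1 microglia marker was called lower and 0 higher, against 0.0771% and 0.588% of all genes. No marker of the other lists was called in that fit. Oligodendrocyte precursor markers went the other way, with 692 to 787 CPM in KO and 635 to 731 CPM in WT with 5 of 9 called higher, among them Cspg4 (0.50 ± 0.09) and Gpr17 (0.41 ± 0.08), and 1 lower, Bcas1 (-0.24 ± 0.04). With the offsets these counts were 3 higher and 1 lower, and with the library total as covariate 0 and 0. Endothelial and pericyte markers summed to 453 to 512 CPM in KO and 407 to 498 CPM in WT, with 4 of 10 called higher and none with the offsets. Choroid plexus markers, at 13.5 to 113 CPM in KO and 9.88 to 111 CPM in WT, were highest in KO 2 and WT 4. No marker of any list was at 0 in all libraries. The part of these shifts in the levels of the 8 genes was not tested.

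**Figure D5:**
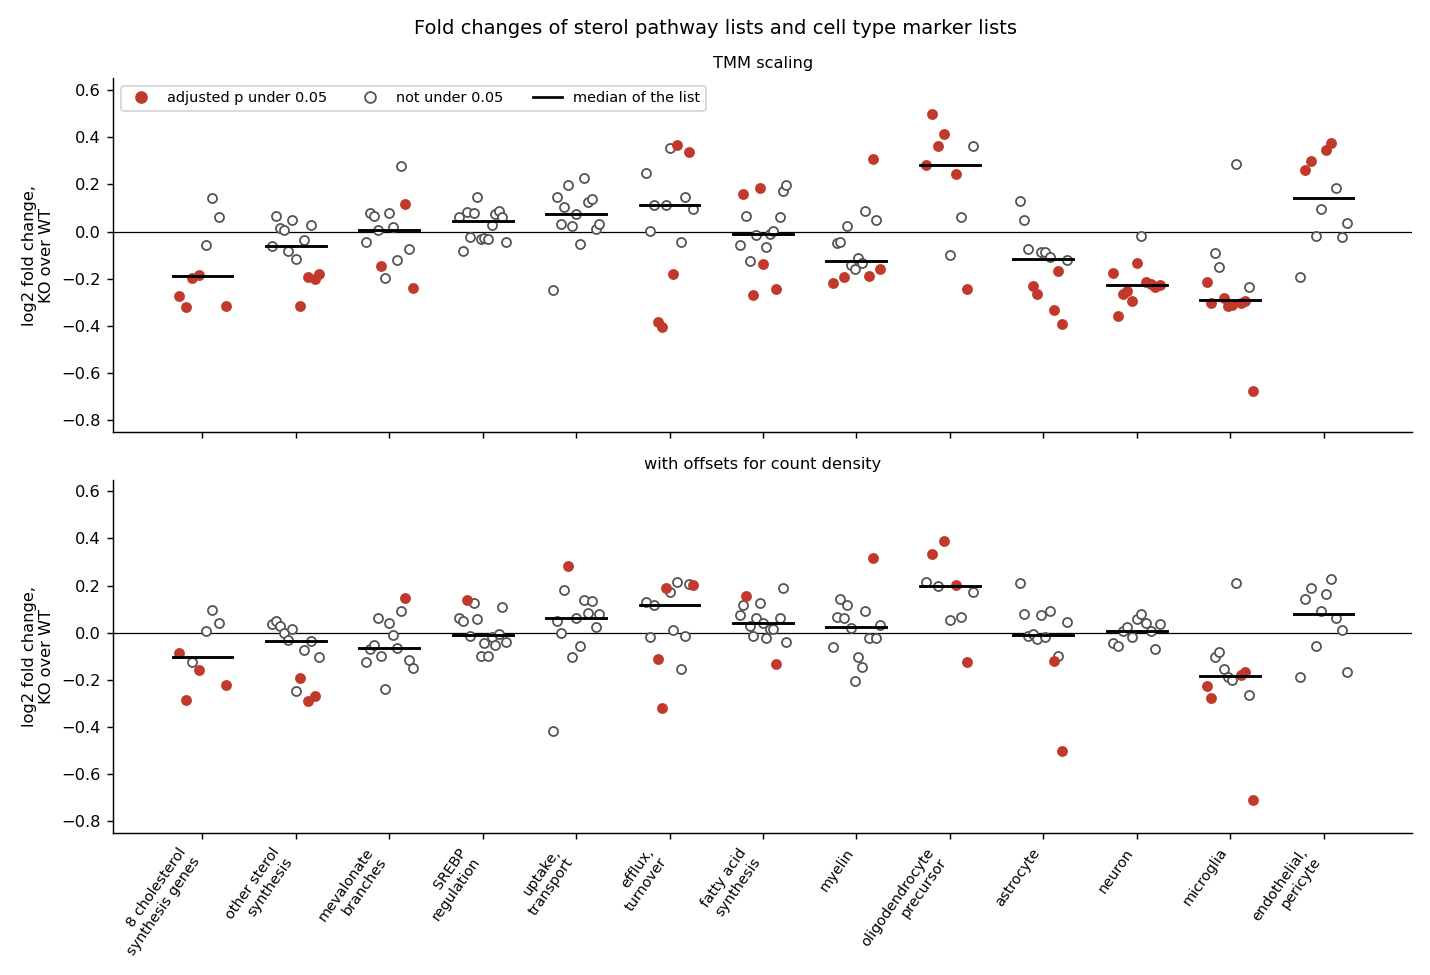
Log2 fold change of KO over WT (vertical) for each tested gene of the sterol and cell type lists (horizontal), with TMM scaling above and density offsets below. The choroid plexus list is not drawn. Red points passed an adjusted p of 0.05, open points did not, and bars are list medians. The median of the 8 genes is -0.19 above and -0.10 below, while that of the neuron markers is -0.23 above and 0.01 below.

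The genes whose levels varied most like the mean of the 8 within the groups were Car8, Slc9a9 and Unc93b1, with Pearson r of 0.95, 0.93 and 0.91 over 12 libraries after the group means were removed, among 14266 genes ranked. They were followed by Acot2, Acot1, Glb1, Gabra5 and 1700001L19Rik, down to an r of 0.88. These are descriptions of 12 libraries that share depth and scaling, and none of these similar genes was among the most similar 8 after the density offsets. The mean also joins unlike profiles. Between pairs of the 8 cholesterol synthesis genes, r of the same deviations ran from -0.70 (Hmgcs1 and Dhcr7) to 0.89 (Fdft1 and Fdps).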

How the data were processed

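Frontal cortex RNA of 5 Upf3b-null and 7 wild-type mice was sequenced with Illumina protocols, per the labels' protocols. The authors deposited raw read counts, 1 whole number for each gene in each library, with no scaling. Alignment with STAR to mm10 is listed, per the submitters' processing notes. The counter, its strand setting and the handling of duplicate reads are not stated there. The p-values measure the spread between these libraries, 1 for each numbered mouse.

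All genes of the table entered 1 edgeR 4.0.16 model (R 4.3.3) of the 12 libraries, a quasi-likelihood fit of genotype alone after filterByExpr, scaled by TMM factors and adjusted by Benjamini-Hochberg, with calls at 0.05. CPM uses TMM-scaled totals. Levels per kb use RefSeq exonic length, known for 14118 tested genes. Density offsets come from a lowess curve fitted in each library. It relates a gene's log2 count scaled by library total, less its mean over the libraries, to the log2 of its mean count per exonic base. Code was tested on simulated data.

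The 8 genes, the lists and the tests were chosen with earlier results of these data known. Beside the 8 genes and Upf3b, the text names of each list up to 4 called genes by smallest p, or 2 where none was called, any other gene of the sterol route, and the 8 genes most alike in group-centred log2 CPM. Srebf1, Srebf2, Insig2 and Ctsb were named for their role or place, after their values were seen. Alternatives were other scalings and tests (DESeq2 1.42.0, limma 3.58.1), filters, a replicate block, density offsets, a term for the log2 library total and fits without chosen libraries. No list was tested as a set. A few genes of the lists are not reported here, and the lists' counts leave them out.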

Additional observations from a re-analysis of the deposited data

Results flagged for a closer look

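In 63 named genes, examined as 126 groups of 5 or 7 libraries, 12 values of single libraries stood apart from the rest of their group, where chance flags about 1 group in 20. None of these was a value of the 8 cholesterol synthesis genes. KO 1 accounted for 6 of them. In KO 1 Apoe stood at 202 CPM (145 to 157 in the other KO libraries) and Apod at 86.5 CPM (63.9 to 70.0). KO 1 was also higher than the other KO libraries for Aldoc at 256 CPM (203 to 216), Slc1a2 at 1277 CPM (999 to 1076) and Snap25 at 360 CPM (258 to 285), and lower for Acaca at 158 CPM (172 to 176). KO 1 was the KO library with a total inside the WT range, and its part in these values was not tested.

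The choroid plexus genes stood apart in KO 2, with Prlr at 23.5 CPM (0.409 to 1.85 in the other KO libraries) and Clic6 at 32.4 CPM (2.37 to 8.56), and in WT 4, with Clic6 at 26.7 CPM (2.10 to 9.84 in the other WT libraries). P2ry12 stood at 60.8 CPM in KO 6 (55.4 to 56.7 in the other KO libraries). Myrf stood at 63.1 CPM in WT 1 (74.9 to 81.3 in the other WT libraries) and Lbr at 31.6 CPM in WT 6 (23.0 to 26.7).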

How the results depend on the processing

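Over 24 alternatives and the fit as reported, 5 of the 8 genes were called lower in KO in 22 settings. The count was 4 with density offsets, 3 with the replicate block and 0 with the log2 library total in the model. Leaving out 1 library gave 5 lower in each of the 12 fits and 0 to 1 higher, the 1 being Lss without KO 1, with a median log2 fold change of the 8 from -0.22 to -0.15. That median was -0.10 with density offsets and -0.13 with the library total. Over the whole table the calls were 2183 higher and 2050 lower, compared with 1206 and 1112 with density offsets and 84 and 11 with the library total, where 88.4% of calls were higher in place of 51.6%. Without 1 library, 1585 to 2420 were higher and 1544 to 2467 lower. Sqle changed direction with density offsets (0.0071), Dhcr7 with the library total (-0.11) and the Fdft1 to Fdps ratio with density offsets (-0.035). The Upf3b log2 fold change ran from -3.92 to -3.64 without 1 library.

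The mouse numbers were not shown to pair the libraries: over 5 shared numbers the correlations of deviations ran from -0.38 to 0.14, 1 of them over 0.1, and 0 of 10 libraries matched best with their own number. With the replicate block, on those 10 libraries, 1133 genes (7.94%) rose and 1180 (8.27%) fell, and 3 of the 8 genes lower. Fdft1 (-0.19, adjusted p = 0.0722, edgeR) and Fdps (-0.20, 0.0619) did not pass, with log2 fold changes close to the -0.18 and -0.20 of the fit as reported. The same 10 libraries without the block gave 1586 higher and 1539 lower. The causes of these changes were not tested. The lowest count of the 8 genes in any library was 249, for Fdps in WT.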
